A study of Mus musculus with 7 samples.

Results

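Ventricles of E11.5 mouse embryos that had lost Hand1 were set against ventricles that carried the same Cre driver and kept wild-type Hand1, over 13701 genes measured by sequencing of polyadenylated RNA. The comparison takes 5 of the 7 libraries, chosen by genotype label. The 2 Hand1 knockout libraries (identifiers NT-1 and NT-6, called replicates 1 and 2) had the genotype Nkx Cre +/-; H1flox/flox. The 3 Cre control libraries (10R-2, 83-1 and 10R-6, replicates 1 to 3) had the genotype Nkx Cre +/-; wt. The other 2 libraries, flox controls labelled Nkx Cre wt; H1flox/flox (310-4 and NT-7), entered the fits to help estimate the spread, and their values stand beside some results. Both compared groups were ventricles of the same age on a mixed background, and both carried 1 copy of the Cre allele, which the study's design names as Nkx2.5 Cre. They differed in the floxed Hand1 alleles, which of these groups only the knockout had, so Hand1 loss and the floxed chromosome cannot be told apart in this comparison. In the identifiers the prefix NT stands in both knockout libraries and in flox control replicate 2 and in no Cre control. The labels do not say what the prefix marks, so it and the genotype cannot be told apart in this comparison. Nor do they say which Nkx2.5 Cre line was used, which litters the embryos came from or whether ventricles were pooled, so the p-values rest on the spread among these 7 samples, which may be technical.

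Hand1 is a basic helix-loop-helix transcription factor. It binds E-box DNA, usually as a partner of an E protein, and in the mouse heart it is transcribed mainly in the outer curvature of the left ventricle and in the outflow tract, while its relative Hand2 is most abundant in the right ventricle and outflow tract. Nkx2-5, after which the Cre is named, is a homeobox factor of the cardiac lineage. Cre removes DNA between lox sites only in cells that have made the recombinase and in their descendants, so cells outside that lineage keep Hand1.

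The knockout libraries held 28346700 counts (replicate 1) and 18975283 counts (replicate 2), and the Cre controls 25577174, 28152695 and 25634969 counts. Xist, the transcript of the inactive X chromosome, was counted 13970 and 27200 times in the knockout libraries and 11, 19741 and 11 times in the Cre controls, so both knockout embryos and Cre control replicate 2 gave female profiles and Cre control replicates 1 and 3 male ones. Genotype and embryo sex therefore overlap in part, and between the knockout and Cre control replicates 1 and 3 they cannot be told apart. The values of a group are listed by replicate number throughout. Knockout replicate 2 stood apart from every other library. Its highest correlation with another library, across genes on log2 CPM, was 0.927, against 0.978 to 0.993 for the other 6. For that reason every gene below is given in each knockout library separately. Values are CPM, a gene's counts per 1000000 counts, scaled by edgeR's TMM factors, and a log2 difference is 1 knockout library minus the mean of the 3 Cre controls. Such differences describe single libraries and have no replicate check of their own. All 11 cardiomyocyte markers were measured, and their summed level was 40410 and 19360 CPM in the knockout libraries, against 34780, 41020 and 29250 CPM in the Cre controls. In bulk tissue, fewer cells of a type and less RNA per cell cannot be told apart.

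The targeted gene, Hand1, was almost lost in each knockout library. It lies at chr11:57828713-57832147 on the minus strand (mm10). The knockout libraries gave 37 and 19 counts of it, against 2465, 1852 and 2189 counts in the Cre controls. Its level was 1.29 and 1.14 CPM in the knockout, against 94.7, 66.3 and 82.6 CPM in the Cre controls, and the groups did not overlap. The mean of 1.22 ± 0.104 CPM (SD, n = 2) was 1.5% of the Cre control mean of 81.2 ± 14.2 CPM (SD, n = 3). Flox controls had 34.1 and 47.6 CPM, above the knockout and below every Cre control. Hand1 fell by 6.05 ± 0.32 on the log2 scale in edgeR's quasi-likelihood test (SE, adjusted p = 0.00948). That call was lost without any 1 Cre control, with adjusted p of 0.0817, 0.071 and 0.117 in edgeR without replicates 1, 2 and 3. In DESeq2 the difference was -6.02 ± 0.34 (SE, adjusted p = 1.16e-64) and it stayed past 0.05 without any 1 of the 7 libraries. Hand2 had 178 and 141 CPM in the knockout, against 165, 174 and 174 CPM in the Cre controls (edgeR adjusted p = 0.754). Knockout replicate 1 lay above the Cre controls and replicate 2 below them. Nkx2-5 had 125 and 88.9 CPM, against 97.7, 114 and 89.3 CPM in the Cre controls (edgeR adjusted p = 0.811), with replicate 1 above the highest Cre control and replicate 2 just below the lowest.

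The 1 other gene that passed edgeR was Mybpc1, which encodes the myosin-binding protein C known from slow skeletal muscle. It lies at chr10:88518279-88605152. Its level was 0.593 and 0.542 CPM in the knockout libraries, against 20.2, 16.3 and 16.8 CPM in the Cre controls, with no overlap. Flox controls had 6.75 and 9.43 CPM. The edgeR difference was -4.95 ± 0.28 on the log2 scale (SE, adjusted p = 0.00948), and the call was lost without Cre control replicate 1, 2 or 3 (adjusted p = 0.0817, 0.109 and 0.117). In DESeq2 it was -4.93 ± 0.39 (adjusted p = 4.56e-33) and was not lost without any 1 library. These 2 genes are 0.0146% of the 13695 genes tested by edgeR, in which 2110 genes had an unadjusted p below 0.05. DESeq2, the alternative count test, called 555 genes on the same 7 libraries (4.05%), of which 218 were higher (1.59%) and 337 lower (2.46%) in the knockout. It had 3166 genes at an unadjusted p below 0.05. The genes named next were, beside these 2, called by DESeq2 and not by edgeR. For the 12 lower and 12 higher genes, edgeR adjusted p-values are given beside them or as a range. Most genes named after those carry the DESeq2 value alone. Over all DESeq2 calls, edgeR adjusted p-values reached 0.324 for lower and 0.331 for higher genes, and only Hand1 and Mybpc1 were below 0.05.

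The 12 lower genes taken up here, Hand1 and Mybpc1 included, were those farthest below the Cre controls, in whichever knockout library was closer to them, among DESeq2 calls below the Cre control range in both libraries, with a mean of at least 5 CPM in the Cre controls and no predicted gene name. Calls of lower level could lie as far below, among them Gria1 and Sox10, which are described further on. Their edgeR adjusted p-values ran between 0.00948 and 0.324, and the DESeq2 calls of all but Rgs5 and Tmem181b-ps stayed past the threshold whichever 1 of the 7 libraries was left out. Mab21l2, a mab-21 family gene needed for eye and body wall development in the mouse, lies at chr3:86545581-86548283. It had 1.47 and 0.662 CPM in the knockout, against 26.2, 14.7 and 20.8 CPM in the Cre controls and 5.97 and 9.21 CPM in the flox controls. All 3 Cre controls lay above both knockout libraries, at log2 differences of -3.70 and -4.76 (DESeq2 -4.20 ± 0.47, SE; adjusted p = 7.65e-16, edgeR 0.116). Psd, an exchange factor for the small GTPase Arf6, lies at chr19:46312087-46327156. It had 0.908 and 1.20 CPM, against 10.6, 9.46 and 15.3 CPM in the Cre controls and 4.88 and 4.27 CPM in the flox controls. The knockout and Cre control libraries did not overlap (DESeq2 -3.48 ± 0.38, adjusted p = 7.17e-17, edgeR 0.0571).

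Tnc, which encodes the matrix glycoprotein tenascin C, lies at chr4:63959785-64047015. It had 22.3 and 6.56 CPM in the knockout libraries, against 192, 149 and 176 CPM in the Cre controls and 52.4 and 108 CPM in the flox controls. Both knockout libraries were below every control library, replicate 2 further than replicate 1, at -2.94 and -4.69 (DESeq2 -3.54 ± 0.57, adjusted p = 1.83e-07, edgeR 0.177). Smoc1, a secreted calcium-binding protein that modulates BMP signalling, lies at chr12:81026808-81186414. It had 2.41 and 1.75 CPM, against 11.2, 12.3 and 9.66 CPM in the Cre controls and 8.11 and 9.17 CPM in the flox controls. Its 2 knockout values lay close together, at log2 differences of -2.16 and -2.60 (DESeq2 -2.36 ± 0.28, adjusted p = 4.08e-14, edgeR 0.0571). Sfrp2, a secreted Wnt antagonist, lies at chr3:83766321-83774314. It had 1.92 and 0.903 CPM, against 5.11, 6.91 and 13.3 CPM in the Cre controls, which spread more among themselves than those of Smoc1 (DESeq2 -2.53 ± 0.55, adjusted p = 0.000454). Padi2, an enzyme that converts arginine to citrulline in proteins, lies at chr4:140906360-140952586. It had 3.84 and 0.421 CPM, against 20.2, 16.5 and 17.8 CPM in the Cre controls and 7.14 and 7.04 CPM in the flox controls. Its log2 differences in knockout replicates 1 and 2 were far apart, at -2.21 and -5.18 (DESeq2 -3.04 ± 0.71, adjusted p = 0.00172).

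Hipk2, a nuclear serine/threonine kinase, lies at chr6:38697840-38876190. It had 12.2 and 15.7 CPM in the knockout, against 41.9, 73.6 and 67.1 CPM in the Cre controls, with no overlap (DESeq2 -2.10 ± 0.33, adjusted p = 7.32e-08). Rgs5, a regulator of G protein signalling known as a pericyte gene, lies at chr1:169655501-169693526. It had 0.768 and 1.08 CPM, against 7.34, 2.08 and 48.4 CPM in the Cre controls, which differed widely among themselves. Its DESeq2 call (-4.36 ± 1.06, adjusted p = 0.00309) was lost without knockout replicate 2 (adjusted p = 0.172) or Cre control replicate 3 (0.0891). The pseudogene Tmem181b-ps had 8.31 and 11 CPM, against 42.3, 39.6 and 50.9 CPM in the Cre controls and 36.1 and 10.6 CPM in the flox controls. Reads of such a copy can be split with its parent gene, and its DESeq2 call (-2.17 ± 0.52, adjusted p = 0.00218) was lost without knockout replicate 2 (0.0722) or Cre control replicate 3 (0.0649).

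**Figure D1:**
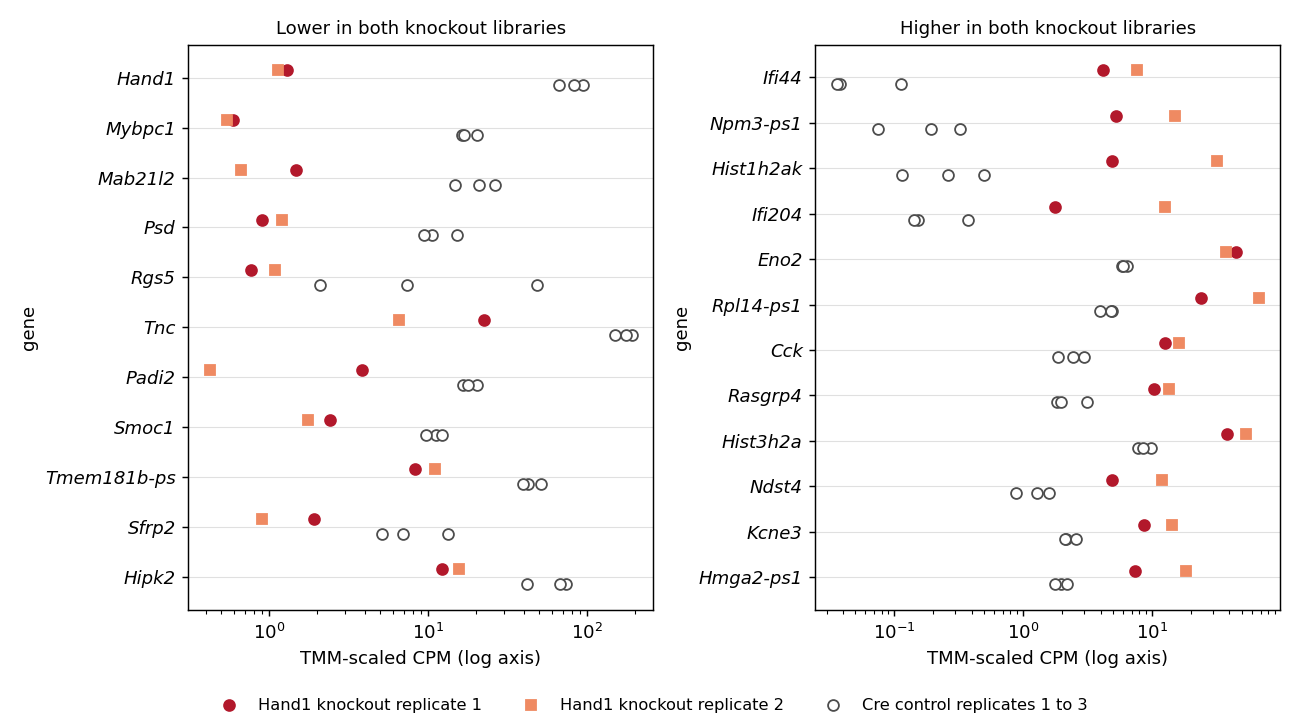
Level of 11 of the 12 lower genes (left) and of the 12 higher genes (right) in each library, in TMM-scaled CPM on a log axis, with knockout replicate 1 as a filled circle, replicate 2 as a square and the 3 Cre controls as open circles. Both knockout libraries lie on 1 side of all 3 Cre controls for every gene shown, which the rule that chose them required; Tnc, for example, had 22.3 and 6.56 CPM in the knockout and 149.4 to 192.5 CPM in the Cre controls.

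HAND factors bind E-boxes, so the 250 bases upstream of the transcription start are printed for Mybpc1, the second gene that passed edgeR, for Mab21l2 and Tnc, both among the 21 genes edgeR called with the length and GC correction described below, and for Cck, a higher gene given as a contrast in direction. The sequences are RefSeq's for GRCm38.p6, the assembly that mm10 is made from, and all 4 genes are on the minus strand. Each is written 5′ to 3′ towards the start site, with every E-box (CANNTG, a pattern that reads the same on both strands) in capitals.
Mybpc1, chr10:88605153-88605402: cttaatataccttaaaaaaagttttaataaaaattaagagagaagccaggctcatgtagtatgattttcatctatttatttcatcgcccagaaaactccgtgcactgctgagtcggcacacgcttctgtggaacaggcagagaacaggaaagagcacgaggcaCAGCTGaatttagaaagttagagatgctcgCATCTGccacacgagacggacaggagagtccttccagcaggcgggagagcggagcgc
Mab21l2, chr3:86548284-86548533: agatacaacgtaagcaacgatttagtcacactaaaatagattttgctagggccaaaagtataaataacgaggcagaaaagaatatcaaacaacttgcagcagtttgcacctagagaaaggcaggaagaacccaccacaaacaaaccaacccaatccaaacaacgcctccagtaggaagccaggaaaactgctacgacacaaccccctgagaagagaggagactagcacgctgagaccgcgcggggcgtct
Tnc, chr4:64047016-64047265: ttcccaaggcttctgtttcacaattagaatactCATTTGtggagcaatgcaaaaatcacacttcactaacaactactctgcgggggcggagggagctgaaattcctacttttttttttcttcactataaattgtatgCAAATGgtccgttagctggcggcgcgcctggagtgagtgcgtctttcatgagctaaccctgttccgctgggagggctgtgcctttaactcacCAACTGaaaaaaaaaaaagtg
Cck, chr9:121495695-121495944: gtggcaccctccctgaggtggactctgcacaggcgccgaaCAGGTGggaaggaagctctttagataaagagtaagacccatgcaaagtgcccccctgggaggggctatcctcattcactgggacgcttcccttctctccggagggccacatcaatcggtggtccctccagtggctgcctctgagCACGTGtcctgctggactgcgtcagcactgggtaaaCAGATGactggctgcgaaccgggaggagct
Mybpc1 had 2 E-boxes, Mab21l2 none, Tnc 3 and Cck 3 in this window. An E-box was present in 66.0% of all 27025 promoters of this length and in 56.6% of the 10372 that belong to tested genes. The D-box pattern CGTCTG, another HAND target sequence, searched on both strands, was in none of the 4. It was present in 5.75% of all promoters and in 8.32% of those that belong to tested genes. A match describes the letters in the window and says nothing of binding in these ventricles.

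The 12 higher genes were chosen by the same rule, with a mean of at least 5 CPM in the knockout, the group in which they were high, so Scg5 was not among them at a knockout mean of 4.54 CPM. Their edgeR adjusted p-values ran between 0.0571 and 0.324, and the DESeq2 calls of all but Ifi204 and Rasgrp4 stayed past the threshold without any 1 library. Eno2, the enolase known from neurons, lies at chr6:124760053-124769673. It had 45.2 and 37.9 CPM in the knockout libraries, against 5.84, 6.38 and 6.0 CPM in the Cre controls, with both knockout libraries above all 3 (DESeq2 2.80 ± 0.29, SE; adjusted p = 6.11e-18, edgeR 0.0571). Its flox control levels of 28.1 and 45.6 CPM also lay above all 3 Cre controls. Cck, which encodes the peptide hormone cholecystokinin, lies at chr9:121489824-121495694. It had 12.6 and 16.3 CPM, against 2.96, 1.86 and 2.45 CPM in the Cre controls and 1.05 and 2.13 CPM in the flox controls (DESeq2 2.60 ± 0.39, adjusted p = 1.58e-08). Here the knockout libraries stood above all 5 control libraries. Kcne3, an accessory subunit of potassium channels, had 8.69 and 14.4 CPM, against 2.15, 2.58 and 2.11 CPM in the Cre controls and 6.16 and 3.07 CPM in the flox controls (DESeq2 2.36 ± 0.42, adjusted p = 4.95e-06). Ndst4, a heparan sulfate sulfotransferase, had 4.92 and 12 CPM, against 0.883, 1.29 and 1.58 CPM in the Cre controls and 3.78 and 2.695 CPM in the flox controls (DESeq2 2.77 ± 0.50, adjusted p = 8.11e-06). Rasgrp4, an activator of Ras known from mast cells, had 10.5 and 13.7 CPM, against 1.84, 1.97 and 3.13 CPM in the Cre controls and 1.44 and 5.8 CPM in the flox controls. Its DESeq2 call (2.41 ± 0.60, adjusted p = 0.00388) was lost without Cre control replicate 1 (0.0693) or 2 (0.0639).

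The remaining 7 higher genes were interferon-inducible genes, histone genes and pseudogenes. Ifi44, an interferon-inducible gene at chr3:151730923-151749959, was counted 120 and 128 times in the knockout libraries, against 1, 1 and 3 times in the Cre controls. That is 4.19 and 7.71 CPM in the knockout, against 0.0384, 0.0358 and 0.113 CPM, while the flox controls had 0.273 and 3.89 CPM and differed between themselves (DESeq2 6.60 ± 1.16, adjusted p = 4.27e-06). Ifi204, a member of a family of near-identical interferon-activated genes whose reads may be shared, had 1.78 and 12.7 CPM, against 0.154, 0.143 and 0.377 CPM in the Cre controls and 0.273 and 8.35 CPM in the flox controls. Its DESeq2 call (5.03 ± 1.25, adjusted p = 0.00376) was lost without knockout replicate 2 (0.601) and with the length and GC correction described below (0.0796). Hist3h2a, a histone H2A gene at chr11:58954685-58955192, had 38.1 and 54.0 CPM, against 7.88, 9.85 and 8.57 CPM in the Cre controls and 25.9 and 30.4 CPM in the flox controls. DESeq2 gave 2.42 ± 0.26 (adjusted p = 9.47e-18), and with the length and GC correction its adjusted p was 0.05004, just outside the threshold. Hist1h2ak, another H2A gene with many close copies, had 4.92 and 32.1 CPM, against 0.115, 0.501 and 0.264 CPM in the Cre controls, and replicate 2 was far above replicate 1 (DESeq2 5.99 ± 0.90, adjusted p = 2.19e-08). The pseudogenes Npm3-ps1, Rpl14-ps1 and Hmga2-ps1 share sequence with their parent genes, so their counts are uncertain. Rpl14-ps1 had 23.9 and 68.3 CPM, against 4.92, 4.80 and 3.96 CPM in the Cre controls and 28.1 and 21.3 CPM in the flox controls (DESeq2 3.36 ± 0.47, adjusted p = 8.84e-10). Npm3-ps1 had 5.24 and 15.2 CPM, against 0.192, 0.322 and 0.0755 CPM in the Cre controls and 2.145 and 3.555 CPM in the flox controls (DESeq2 5.71 ± 0.71, adjusted p = 9.58e-13). Hmga2-ps1 had 7.40 and 18.4 CPM, against 1.96, 2.19 and 1.77 CPM in the Cre controls and 2.03 and 7.86 CPM in the flox controls (DESeq2 2.73 ± 0.64, adjusted p = 0.00177). In both, replicate 2 was the higher knockout library and neither overlapped the Cre controls.

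The 2 knockout libraries differed from the Cre controls in unlike ways. A gene's deposited exon length and GC content took up 11.2% of the variance of the log2 differences in replicate 1, whose SD was 0.369, and 58.5% in replicate 2, whose SD was 1.169, over 11128 genes with a mean of at least 5 CPM. In the decile of shortest genes (median 893 bases) the median log2 difference was 0.12 in replicate 1 and 1.20 in replicate 2. In the decile of longest genes (median 8009 bases) it was -0.23 in replicate 1 and -0.61 in replicate 2. By GC content the libraries ran opposite ways. Genes of the lowest decile (median 39.7% GC) had a median of -0.13 in replicate 1 and 1.40 in replicate 2, and genes of the highest decile (median 59.6% GC) had 0.07 in replicate 1 and -0.59 in replicate 2. Over all 13695 genes the medians were -0.01 and -0.02. The source of these trends was not tested.

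**Figure D2:**
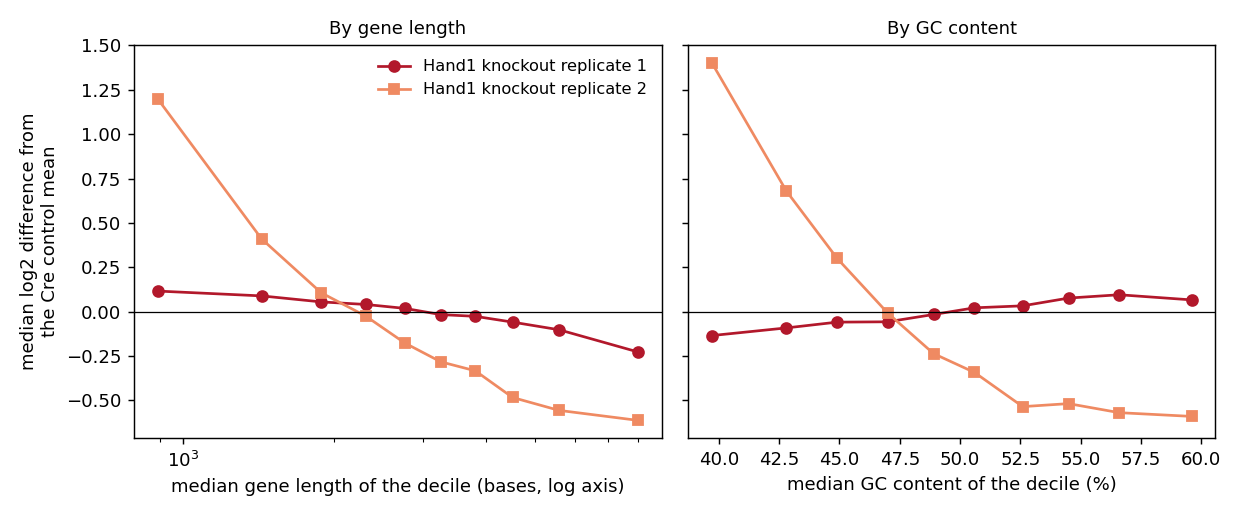
Median log2 difference of each knockout library from the Cre control mean, on the vertical axis, by deciles of gene length in bases (left, log axis) and of GC content in percent (right). Replicate 1 stays between -0.23 and 0.12 across both panels, while replicate 2 runs between 1.20 and -0.61 with length and between 1.40 and -0.59 with GC content.

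Because of this trend, each library was also set against the range of the 3 Cre controls. Knockout replicate 1 lay above all 3 for 34.9% of genes and below all 3 for 36.8%. Knockout replicate 2 lay above them for 45% and below them for 46.6%, so most genes of this library were outside the Cre control range. Both libraries were above the range for 16.4% of genes and below it for 18.9%, which makes 4838 genes (35.3%) outside on the same side, while 4233 genes (30.9%) were outside on opposite sides. A gene outside the range in both knockout libraries was therefore common, and counts of such genes are to be read against these shares.

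The DESeq2 calls depended on single libraries. None of the DESeq2 fits took embryo sex into account. Of the 555 calls, 552 had both knockout libraries outside the Cre control range on the same side. Without knockout replicate 1, 12 of the 555 calls were lost, and without knockout replicate 2, 268 were lost. Without Cre control replicates 1, 2 and 3, 424, 417 and 451 were lost. Without flox control replicates 1 and 2, 307 and 313 were lost. Leaving out knockout replicate 2 left 459 DESeq2 calls in all (3.35%) and raised the number of edgeR calls to 63 (0.46%). Without knockout replicate 1, that is with replicate 2 as the only knockout library, edgeR called 8813 genes and DESeq2 8395. With each library's length and GC trend taken into the fit, edgeR called 21 genes (0.153%) and DESeq2 708 (5.17%), 345 of them among the 555. Of the 708, 352 were higher and 356 lower, and list counts with these factors are to be read beside them. The 21 were Hand1, Mybpc1, Mab21l2, Tnc, Smoc1, Masp1, Kif13b, Sobp, Nppa, Stk38l and Slc40a1, which were lower, and Tll1, 4933404O12Rik, Apold1, Slc35d3, C130080G10Rik, Ntf3, Eno2, Rpl14-ps1, Gm1943 and Npm3-ps1, which were higher.

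A set of 82 DESeq2 calls stayed past the threshold in all 7 fits that left out 1 library, 34 higher and 48 lower. This set was chosen after the values were seen, and no test was made of it. The lower ones had a median log2 difference of -1.69 in replicate 1 and -2.21 in replicate 2, and the higher ones 1.84 in replicate 1 and 2.56 in replicate 2. Their median lengths were 3922.5 bases for the lower and 1688.5 bases for the higher, against 4373 and 1829 bases over all lower and higher calls and 2993 bases over all genes tested. With the length and GC factors 75 of the 82 stayed called, 45 lower and 30 higher. Fits with 1 knockout library alone were among these 7, and they judge that library by the spread within the control groups. The edgeR calls made with knockout replicate 1 alone use the same libraries as a fit that chose the set. Their overlap with the set is therefore no separate check of it. RefSeq promoters were found for 33 of the held lower and 24 of the held higher genes, and E-boxes were present in 57.6% of the lower and 50% of the higher. Over all tested genes the share was 56.6%. The D-box was in 0 of the 33 held lower and in 8.33% of the 24 held higher promoters, against 8.32% over all tested genes.

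**Figure D3:**
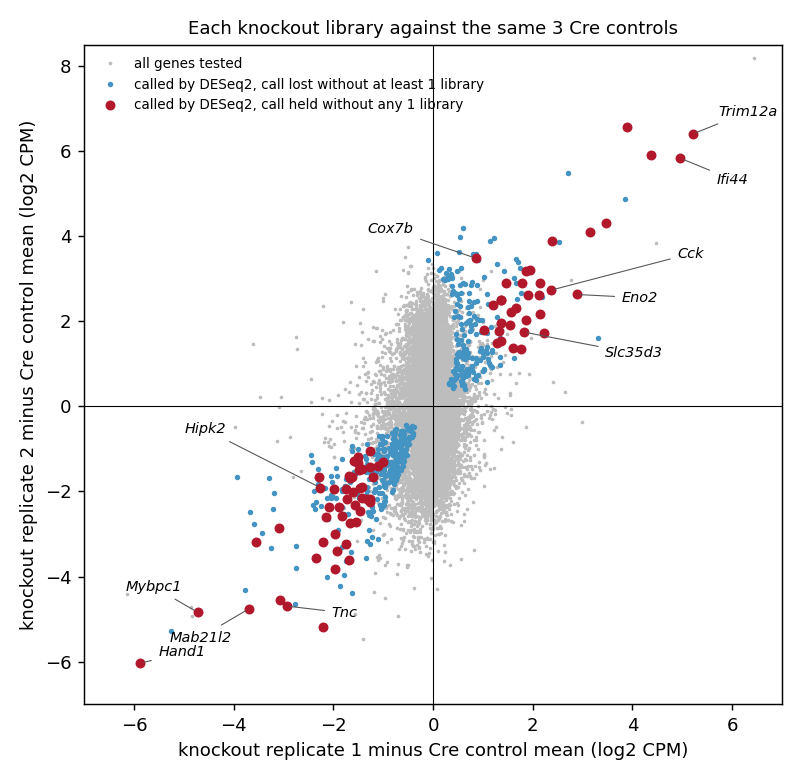
Log2 CPM difference of each gene from the mean of the same 3 Cre controls, in knockout replicate 1 on the horizontal axis and knockout replicate 2 on the vertical axis. Grey points are all genes tested, blue points are DESeq2 calls lost without at least 1 library and red points are the 82 calls held without any 1 library; the grey cloud is tall and narrow, with an SD of 1.169 in replicate 2 and 0.369 in replicate 1 among genes of at least 5 CPM.

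The authors' deposited table calls 1439 of 13701 genes (10.5%) at a false discovery rate below 0.05 for this comparison, 931 higher (6.8%) and 508 lower (3.71%). Set against each library, the 2 directions looked different. The 508 lower genes in the authors' deposited table had a median log2 difference of -0.83 in knockout replicate 1 and -1.77 in replicate 2, and 504 of them were below the Cre control range in each library. None had the opposite sign in either library. Of the 930 higher genes in the authors' deposited table that were tested here, the median was 0.16 in replicate 1 and 2.05 in replicate 2. Replicate 2 was above the Cre control range for all 930, replicate 1 for 609, and replicate 1 had the opposite sign for 208. The median exon length was 1261.5 bases for the higher and 4756 bases for the lower genes of the authors' deposited table. DESeq2 here called 175 of the 930 and 284 of the 508.

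**Figure D4:**
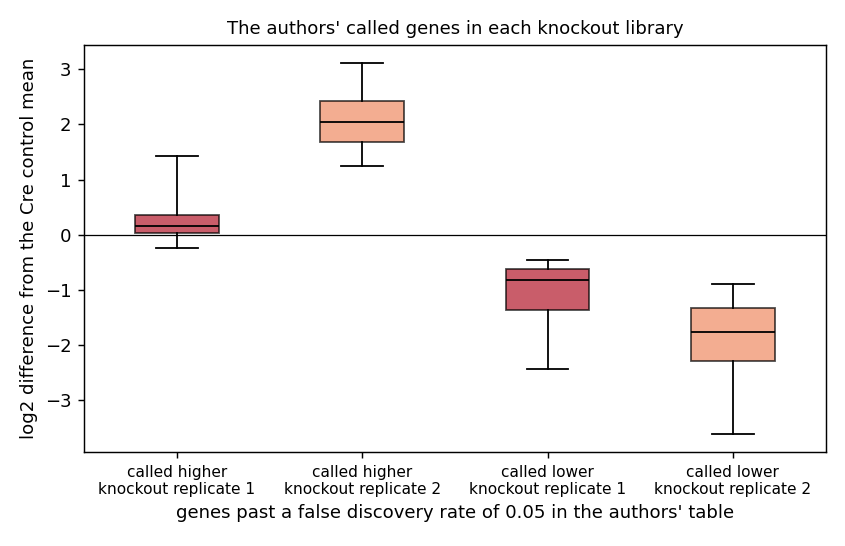
Log2 difference from the Cre control mean in knockout replicates 1 and 2 for the genes past a false discovery rate of 0.05 in the authors' deposited table, by direction, with boxes for the quartiles, a line for the median and whiskers at the 5th and 95th percentiles. Higher genes sit near 0 in replicate 1 (median 0.16) and high in replicate 2 (median 2.05), and lower genes sit below 0 in both (medians -0.83 and -1.77).

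Some genes of the extracellular matrix were called lower, and the lists lay much further below the Cre controls in knockout replicate 2 than in replicate 1. Of 38 matrix proteins and remodelling enzymes, DESeq2 called 6 lower and none higher, beside 2.46% and 1.59% of all genes, and 22 were below the Cre control range in both knockout libraries, with none above it, beside 18.9% of all genes below it. The list holds long genes, with a median of 4571.5 bases, and with the length and GC factors DESeq2 called 5 lower. The median log2 difference was -0.16 in replicate 1 and -1.93 in replicate 2, against -0.01 and -0.02 over all genes, and with the length and GC trend taken out it was -0.17 and -1.12. The called members included Tnc and Smoc1. Mmp28, a secreted metalloproteinase, had 3.14 and 1.45 CPM in the knockout, against 11.3, 7.63 and 12.1 CPM in the Cre controls, with no overlap (DESeq2 -2.12 ± 0.45, adjusted p = 0.000330). Adamts19, a secreted protease of the ADAMTS family, had 31.8 and 26.6 CPM, against 58.4, 57.9 and 52.9 CPM in the Cre controls. Its DESeq2 call (-0.92 ± 0.19, adjusted p = 0.000167) was lost without Cre control replicate 1 (0.179), 2 (0.174) or 3 (0.123). Vcan, the proteoglycan versican of the cardiac jelly, had 1006 and 967 CPM, against 1366, 1428 and 1450 CPM in the Cre controls. Its DESeq2 call (-0.49 ± 0.11, adjusted p = 0.00110) was lost without any 1 Cre or flox control, at adjusted p between 0.264 and 0.496, and with the length and GC factors (0.379).

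Of 33 collagens and laminins DESeq2 called 2 lower and none higher, beside 2.46% and 1.59% of all genes, and 13 were below the Cre control range in both knockout libraries, beside 18.9% of all genes. The median was -0.12 in replicate 1 and -2.47 in replicate 2, and with the trend taken out -0.0029 and -1.39. Col26a1, a collagen of developing tissues, had 12.7 and 4.04 CPM in the knockout, against 30.4, 32.1 and 30.4 CPM in the Cre controls. The groups did not overlap, and its DESeq2 call (-1.85 ± 0.47, adjusted p = 0.00514) was lost without Cre control replicate 1 (0.0744), 2 (0.0864) or 3 (0.0909). Col12a1, a fibril-associated collagen, had 22.6 and 20.2 CPM, against 32.0, 39.4 and 44.8 CPM in the Cre controls. Its DESeq2 call (-0.83 ± 0.23, adjusted p = 0.0149) was lost without any 1 Cre or flox control, at adjusted p between 0.112 and 0.384. Markers of cushion mesenchyme and fibroblasts summed to 2776 and 1399 CPM in knockout replicates 1 and 2 and to 3557, 3471 and 3824 CPM in the Cre controls, over all 10 genes of that list, of which 7 were below the range in both knockout libraries. Tnc and Vcan belong to that list as well. The part of a smaller mesenchymal share in the matrix genes was not tested.

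Calls among secreted signals went in both directions. They are to be read beside the 2.46% of all genes that DESeq2 called lower and the 1.59% it called higher. Of 10 measured secreted Wnt antagonists DESeq2 called 3 lower and none higher, with medians of -0.26 and -1.51 in replicates 1 and 2. Beside Sfrp2 these were its relatives Sfrp5 and Frzb, which bind Wnt proteins outside the cell. With the length and GC trend taken out, the medians of the 10 were -0.21 and -0.915. Their summed level was 559.8 and 208.6 CPM, against 465.9, 471.9 and 466.2 CPM in the Cre controls. Replicate 1 thus lay above the range of the sums and replicate 2 below it. Sfrp5 had 1.33 and 0.301 CPM, against 4.65, 4.19 and 4.91 CPM in the Cre controls, and its call (-2.40 ± 0.58, adjusted p = 0.00268) was lost without Cre control replicate 1 (0.0583) or 3 (0.0744). Frzb had 4.61 and 3.01 CPM, against 9.68, 7.74 and 15.2 CPM, and its call (-1.48 ± 0.40, adjusted p = 0.00941) was lost without Cre control replicate 1 or 3 or either flox control, at adjusted p between 0.0514 and 0.21. Of 24 Wnt ligands and receptors 1 was called lower. The ligand gene Wnt5a had 72.8 and 48.4 CPM, against 105, 104 and 119 CPM in the Cre controls (DESeq2 -0.82 ± 0.26, adjusted p = 0.0409), and was lost without knockout replicate 2 or any 1 control (0.0551 to 0.417). Of 19 FGF ligands, receptors and feedback genes 1 was called higher. The ligand gene Fgf9 had 12.9 and 23.1 CPM, against 9.07, 8.56 and 6.42 CPM in the Cre controls and 15.2 and 12.9 CPM in the flox controls (DESeq2 1.19 ± 0.34, adjusted p = 0.0207), and was lost without knockout replicate 2 or any 1 control (0.0910 to 0.326). With the length and GC factors 2 of the Wnt list were called lower and 3 of the FGF list higher. Of 23 BMP ligands, receptors and inhibitors 1 was called higher and 2 lower. The ligand gene Bmp4 had 16.8 and 18.3 CPM, against 44.6, 30.6 and 57.9 CPM in the Cre controls, with no overlap, and its call (-1.31 ± 0.32, adjusted p = 0.00327) was lost without Cre control replicate 1 (0.121) or 3 (0.139). The receptor gene Acvr2b had 7.58 and 8.31 CPM, against 12.2, 17.8 and 15.1 CPM, and its call (-0.90 ± 0.25, adjusted p = 0.0122) was lost without any 1 Cre or flox control (adjusted p between 0.0887 and 0.368). Chrdl1, a secreted BMP antagonist and the member called higher, had 2.23 and 3.91 CPM, against 1.08, 1.25 and 1.02 CPM in the Cre controls and 1.95 and 2.66 CPM in the flox controls, and its call (1.47 ± 0.40, adjusted p = 0.0115) was lost without knockout replicate 2 (0.394) and without any 1 control library (0.0633 to 0.277).

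Of 8 measured second heart field and outflow tract markers 2 were called lower by DESeq2 (2.46% of all genes), Bmp4 and Isl1, a LIM homeobox factor of second heart field progenitors. Isl1 had 0.698 and 2.29 CPM in the knockout, against 6.61, 5.26 and 12.4 CPM in the Cre controls and 2.11 and 2.99 CPM in the flox controls, which lay on either side of knockout replicate 2, and its call (-2.45 ± 0.61, adjusted p = 0.00406) was lost without Cre control replicate 3 (0.112). The summed level of that list was 242.9 and 366.5 CPM in knockout replicates 1 and 2, against 345.8, 316.3 and 392.7 CPM in the Cre controls, with replicate 1 below the range and replicate 2 within it. How much outflow tract each dissected ventricle kept is not stated, and its part in these values was not tested. Guidance genes of the Slit, Robo, semaphorin, plexin and neuropilin families had 4 of 21 members called lower and none higher, beside 2.46% and 1.59% of all genes, with medians of -0.31 and -1.18. These are long genes (median 7207 bases), and with the length and GC factors 2 were called higher and 1 lower. The receptor gene Robo2 had 21.2 and 19.5 CPM, against 47.3, 31.7 and 57.8 CPM, and its ligand Slit2 had 149.6 and 122 CPM, against 222, 329 and 227 CPM in the Cre controls. The groups did not overlap for either. The DESeq2 call of Robo2 (-1.14 ± 0.32, adjusted p = 0.0164) was lost without Cre control replicate 1 or 3 or either flox control (0.0794 to 0.326), and that of Slit2 (-0.90 ± 0.27, adjusted p = 0.0242) without any 1 Cre or flox control (0.138 to 0.339). Plxna2, a plexin receptor (-0.97 ± 0.28, adjusted p = 0.0180), and Sema5a, a semaphorin (-0.74 ± 0.22, adjusted p = 0.0270), were the other DESeq2 calls. Plxna2 was lost without any 1 Cre or flox control (0.0859 to 0.354), and Sema5a also without knockout replicate 2, at adjusted p between 0.18 and 0.437 for its 6 lost fits.

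Of 12 retinoic acid genes DESeq2 called 1 higher and 2 lower, beside 1.59% and 2.46% of all genes. Aldh1a1, an enzyme of retinoic acid synthesis, had 23.2 and 26.1 CPM in the knockout, against 14.6, 9.21 and 11.6 CPM in the Cre controls. Its call (1.09 ± 0.27, adjusted p = 0.00324) was lost without Cre control replicate 2 (0.163) or 3 (0.222) or either flox control (0.0597 and 0.0598). Crabp1, a retinoic acid binding protein, had 1.01 and 1.57 CPM, against 5.19, 2.94 and 9.47 CPM, and its call (-2.18 ± 0.56, adjusted p = 0.00539) was lost without Cre control replicate 1 (0.0552) or 3 (0.111). Rarg, a nuclear retinoic acid receptor, had 12.5 and 5.42 CPM, against 22.1, 19.4 and 25.5 CPM (DESeq2 -1.28 ± 0.40, adjusted p = 0.0374), and was lost without any 1 Cre or flox control (0.109 to 0.347).

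Ion channel genes held some of the calls that stayed without any 1 library. Of 16 cardiac potassium channel genes DESeq2 called 2 higher and 3 lower, and of 17 calcium and sodium channel genes 1 higher and 1 lower, beside 1.59% and 2.46% of all genes. With the length and GC factors the potassium channel calls were 2 higher and 1 lower, and the calcium and sodium channel calls 1 higher and 2 lower. Kcnk3, a background potassium channel, had 55.5 and 33.5 CPM in the knockout, against 140.0, 185 and 129 CPM in the Cre controls, with no overlap (DESeq2 -1.74 ± 0.33, adjusted p = 3.85e-05). Flox controls had 82.6 and 104 CPM of Kcnk3. Cacna1d, an L-type calcium channel subunit known from pacemaker and atrial cells, had 12.7 and 9.63 CPM, against 39.4, 36.4 and 42.0 CPM (DESeq2 -1.78 ± 0.24, adjusted p = 2.8e-10). Scn10a, a sodium channel whose variants in humans are linked to conduction, had 12.8 and 10.8 CPM, against 4.96, 3.83 and 3.74 CPM, so both knockout libraries were above the Cre controls (DESeq2 1.53 ± 0.26, adjusted p = 2.4e-06). These 3 calls were not lost in any fit without 1 library. Kcnj3, an atrial inward rectifier, had 32.3 and 66.2 CPM, against 18.3, 19.6 and 19.3 CPM in the Cre controls and 39.4 and 34.0 CPM in the flox controls, and its call (1.39 ± 0.35, adjusted p = 0.00409) was lost without Cre control replicate 1, 2 or 3 (0.125, 0.0951 and 0.128). Kcnd3, a transient outward channel, had 1.57 and 2.59 CPM, against 4.53, 4.76 and 5.96 CPM (DESeq2 -1.30 ± 0.32, adjusted p = 0.00419), and was lost without any 1 Cre or flox control (0.0633 to 0.275).

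Chamber myocardium genes were split. Of 15, DESeq2 called 2 higher and 2 lower, beside 1.59% and 2.46% of all genes, with medians of 0.16 and 0.25. Nppa, which encodes atrial natriuretic peptide and marks working chamber myocardium, had 521 and 706 CPM in the knockout, against 1251, 1440 and 1230 CPM in the Cre controls and 1513 and 1265 CPM in the flox controls. Both knockout libraries lay below all 5 controls, but its call (-1.07 ± 0.22, adjusted p = 0.000274) was lost without Cre control replicate 1, 2 or 3 (0.0806, 0.129 and 0.0803). Nppa was also among the 21 genes that edgeR called with the length and GC offsets. Cited1, a transcriptional coregulator, had 212 and 151 CPM, against 372, 392 and 304 CPM (DESeq2 -0.94 ± 0.26, adjusted p = 0.0104), and was lost without any 1 Cre or flox control (0.0922 to 0.32). Fhl2, a LIM domain cofactor found in sarcomeres and nuclei, had 185 and 186 CPM, against 99.8, 115 and 103 CPM, with both knockout libraries above the controls and close together (DESeq2 0.83 ± 0.14, adjusted p = 2e-06), and was lost without Cre control replicate 1, 2 or 3 (0.172, 0.0636 and 0.185). Smpx, a small muscle protein, had 327 and 1777 CPM, against 248, 273 and 236 CPM in the Cre controls and 574 and 309.7 CPM in the flox controls, so that replicate 2 set its call (2.08 ± 0.65, adjusted p = 0.0412, against 0.678 without that library; also lost without any 1 control, 0.0536 to 0.252).

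Sarcomere genes were mostly not called. Their counts are to be read beside the 1.59% of all genes that DESeq2 called higher and the 2.46% it called lower. Among 11 measured troponins and tropomyosins 1 was called, Tnni2, the fast skeletal troponin I, with 60.4 and 67.7 CPM in the knockout, against 16.8, 21.0 and 13.1 CPM in the Cre controls and 25.3 and 15.4 CPM in the flox controls (DESeq2 1.94 ± 0.33, adjusted p = 2.14e-06, held without any 1 library). Of 15 thick filament genes Mybpc1 alone was called, and of 20 actin, titin and Z-disc genes Fhl2 and Myoz2. Myoz2, a Z-disc protein that binds calcineurin, had 106 and 329 CPM, against 57.5, 83.2 and 57.4 CPM in the Cre controls and 123 and 69.1 CPM in the flox controls, and its call (1.74 ± 0.53, adjusted p = 0.0350) was lost without knockout replicate 2 (0.270) or any 1 control (0.0501 to 0.283). All 6 skeletal muscle regulators listed, Myod1, Myf5, Myog, Myf6, Pax7 and Pax3, had no row in the table.

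No core cardiac transcription factor was called by either test. Of 13 measured, with medians of 0.05 and -0.67, none passed DESeq2 or edgeR and 1 had an unadjusted p below 0.05 in each tool. None of 5 T-box factors passed either tool with all 7 libraries, adjusted or not. Tbx3, a repressor known from the atrioventricular canal and named after its values were seen, had 49.3 and 24.4 CPM in the knockout, against 25.8, 24.0 and 31.6 CPM in the Cre controls, with replicate 1 above the range and replicate 2 within it. DESeq2 called it higher with the length and GC factors (adjusted p = 0.000265) and with knockout replicate 1 alone (adjusted p = 0.00944), against 0.432 with all 7 libraries. Of 6 Iroquois factors DESeq2 called 1 higher, beside 1.59% of all genes, and 3 with the length and GC factors, beside 352 of all 13694 genes. Irx2 had 49.0 and 44.2 CPM in the knockout, against 26.0, 30.8 and 24.3 CPM in the Cre controls, and its call (0.81 ± 0.20, adjusted p = 0.00363) was lost without any 1 Cre or flox control (0.104 to 0.347). Of the 11 HAND factors, partners and Id inhibitors only Hand1 was called with all 7 libraries. With the length and GC factors 3 were called lower, beside 356 of all 13694 genes. Hdac4, a histone deacetylase that represses MEF2, was the 1 call among 20 epigenetic regulators, beside 2.46% of all genes called lower. It had 7.29 and 5.90 CPM, against 16.0, 15.7 and 15.8 CPM in the Cre controls (DESeq2 -1.22 ± 0.19, adjusted p = 7.32e-08), and was held without any 1 library. With all 7 libraries, the cell cycle lists had calls only among cyclin-dependent kinase inhibitors. None of 20 S phase genes, 20 G2 and M phase genes or 13 p53 targets passed DESeq2 or edgeR. At an unadjusted p below 0.05 there were 3, 5 and 3 of them in DESeq2 and 1, 2 and 2 in edgeR. Over all genes 3166 of 13694 in DESeq2 and 2110 of 13695 in edgeR had such a p. Of 7 cyclin-dependent kinase inhibitors DESeq2 called 1 higher and 1 lower, beside 1.59% and 2.46% of all genes. Cdkn2b had 0.454 and 0.361 CPM, against 2.77, 1.79 and 2.08 CPM (DESeq2 -2.38 ± 0.47, adjusted p = 8e-05), and was held. Cdkn2d had 53.4 and 67.1 CPM, against 39.5, 41.5 and 37.1 CPM (DESeq2 0.64 ± 0.18, adjusted p = 0.0163), and was lost without knockout replicate 2 (0.143) or any 1 control (0.203 to 0.447).

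Lists of short genes were high in knockout replicate 2. Of 27 cytosolic ribosomal protein genes, with a median length of 734 bases, 24 lay above the Cre control range in both libraries, beside 16.4% of all genes. Their median log2 difference was 0.22 in replicate 1 and 2.08 in replicate 2. DESeq2 called 1 of them higher, beside 1.59% of all genes, and this was Rpl39. It had 90.6 and 1055 CPM, against 92.2, 76.0 and 91.4 CPM in the Cre controls and 188 and 94.7 CPM in the flox controls, and its call (2.75 ± 0.83, adjusted p = 0.0306) was lost without knockout replicate 2 (0.966) and when any 1 Cre control was left out (0.117, 0.151 and 0.139). Of 28 respiratory chain genes, with a median length of 728 bases, 18 lay above the range in both libraries, beside 16.4% of all genes. DESeq2 called 3 higher, beside 1.59% of all genes, and the medians were 0.23 and 1.41. The cytochrome c oxidase subunit genes were these 3. Cox7b had 454 and 2793 CPM, against 259, 247 and 246 CPM in the Cre controls and 478 and 356 CPM in the flox controls, and was held without any 1 library (DESeq2 2.72 ± 0.66, adjusted p = 0.00272). Cox5a had 377 and 467 CPM, against 266, 269 and 239.7 CPM (DESeq2 0.73 ± 0.17, adjusted p = 0.00218), but with the length and GC correction its direction reversed, to -0.27 in edgeR and -0.23 in DESeq2, and it was lost without any 1 Cre or flox control (0.125 to 0.356). Cox7a1 had 40.6 and 183 CPM, against 29.4, 30.4 and 27.8 CPM in the Cre controls and 44.5 and 28.6 CPM in the flox controls (DESeq2 1.96 ± 0.59, adjusted p = 0.0316), and was lost without knockout replicate 2 (0.398) or any 1 control (0.0524 to 0.222). With the trend taken out, the replicate 2 medians were 0.68 for the ribosomal and 0.00 for the respiratory genes. Glycolysis genes, 21 measured and none past 0.05 in DESeq2 or edgeR with all 7 libraries even unadjusted, had medians of 0.41 in replicate 1 and -0.74 in replicate 2. With the length and GC factors DESeq2 called 1 of these 21 higher, beside 352 of all 13694 genes. The list does not hold the enolase gene Eno2, which DESeq2 called higher as described above. Rpl22l1, a ribosomal protein paralogue, was the 1 DESeq2 call whose libraries differed from the Cre controls in opposite directions, with 65.5 and 764 CPM in the knockout, against 79.7, 61.4 and 71.8 CPM. Its log2 differences were -0.11 and 3.44, and its call (2.57 ± 0.83, adjusted p = 0.0473) was lost without knockout replicate 2 (0.964) and without any 1 control (0.0598 to 0.223).

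**Figure D5:**
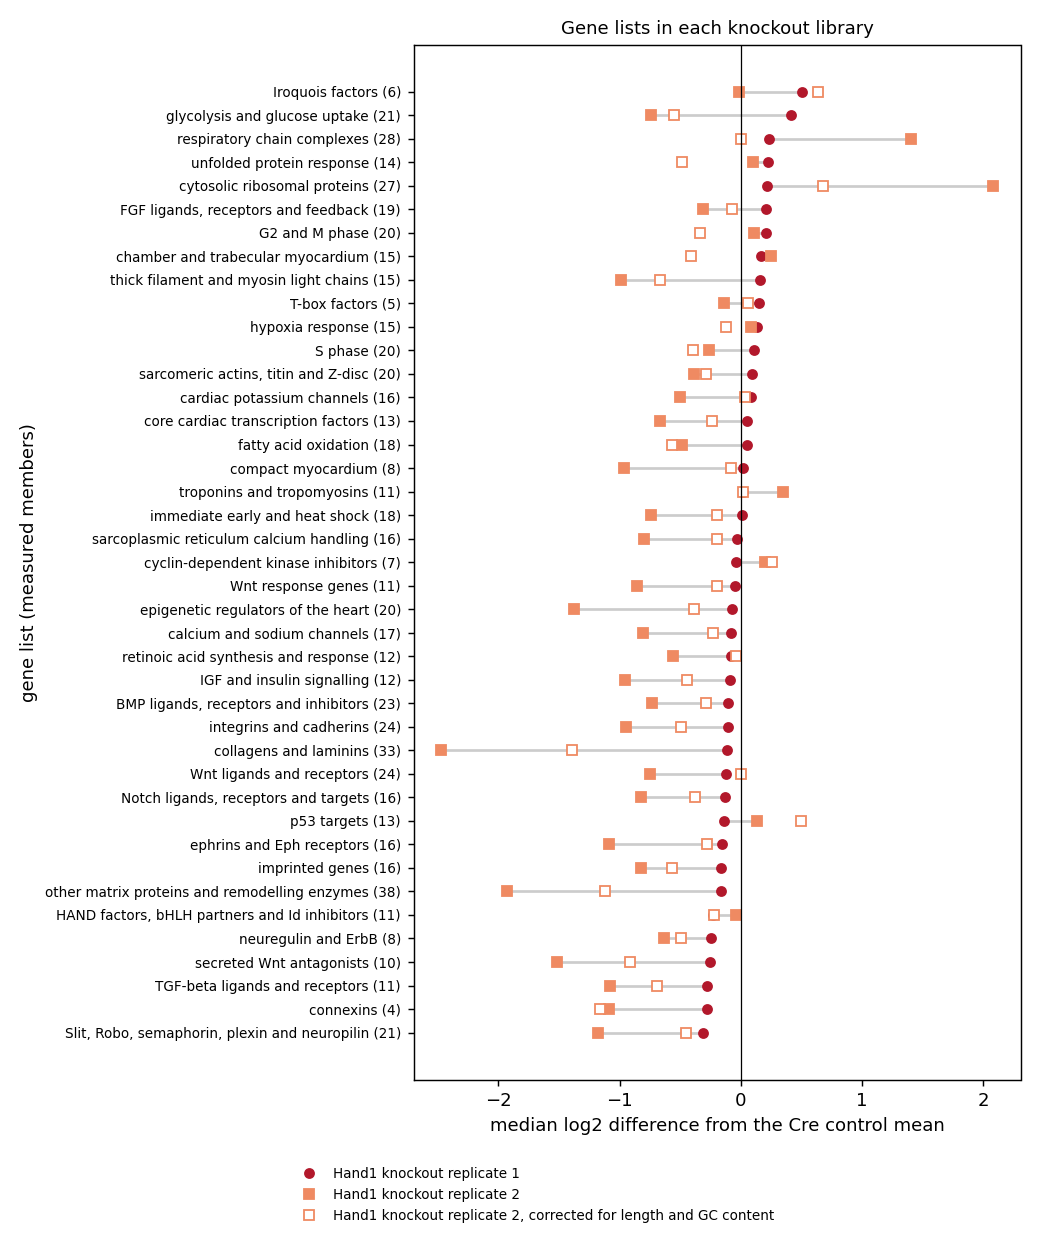
Median log2 difference from the Cre control mean over the measured members of each list of pathway and function genes (cell type marker lists are not drawn), in knockout replicate 1 (circles), replicate 2 (filled squares) and replicate 2 with its length and GC trend removed (open squares), with the number of measured members in brackets. Replicate 1 medians lie between -0.31 and 0.50, while replicate 2 medians run between -2.47 for collagens and laminins and 2.08 for ribosomal proteins and mostly move towards 0 once the trend is removed.

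Markers of other cell types varied between libraries. Called members are to be read beside the 1.59% of all genes that DESeq2 called higher and the 2.46% it called lower. Erythroid markers, 9 of 11 measured, summed to 3031 and 14230 CPM in knockout replicates 1 and 2 and to 4423, 4513 and 8241 CPM in the Cre controls, so the knockout libraries lay on either side of the range. The 10 endocardial and endothelial markers summed to 1467 and 756.9 CPM, against 1582, 1669 and 1513 CPM in the Cre controls. The 9 epicardial markers summed to 425.7 and 340.2 CPM, against 399.6, 353.7 and 337.7 CPM, and 1 of them, Tcf21, an epicardial transcription factor, was called higher (DESeq2 0.46 ± 0.15, adjusted p = 0.0492, lost without any 1 library other than knockout replicate 1, at 0.344 to 0.558). Atrial myocyte markers, 9 measured, summed to 4825 and 8613 CPM, against 4528, 4636 and 4172 CPM in the Cre controls, and 2 were called higher, Kcnj3 and Stard10. Stard10, a lipid transfer protein, had 42.8 and 92.5 CPM, against 12.1, 11.8 and 13.2 CPM (DESeq2 2.47 ± 0.38, adjusted p = 2.94e-08, held without any 1 library). The 5 measured neural crest and neuronal markers summed to 163.2 and 236.7 CPM, against 202.2, 201.8 and 208.1 CPM in the Cre controls. The knockout libraries thus lay on either side of the range, and only Sox10 was called. Sox10, a neural crest transcription factor, had 0.209 and 0 CPM, against 2.88, 0.716 and 3.21 CPM in the Cre controls and 0.390 and 0.487 CPM in the flox controls. Its DESeq2 call (-4.21 ± 1.00, adjusted p = 0.00197) was lost without Cre control replicate 3 (0.0566). The 8 measured macrophage markers summed to 29.1 and 41.4 CPM, against 23.05, 22.8 and 26.3 CPM in the Cre controls. Their median log2 differences were below 0, at -0.20 and -0.225, and only Lyz2 was called. Lyz2 had 13.4 and 29.9 CPM, against 7.95, 8.13 and 5.77 CPM in the Cre controls and 50.9 and 37.1 CPM in the flox controls. Its call (DESeq2 1.59 ± 0.42, adjusted p = 0.00702) was lost without Cre control replicate 1, 2 or 3 (0.0799, 0.0694 and 0.171). The 7 megakaryocyte markers summed to 46.5 and 37.8 CPM, against 59.9, 111.3 and 78.2 CPM, and Itga2b among them had 8.31 and 6.26 CPM, against 13.1, 29.3 and 16.4 CPM in the Cre controls and 8.62 and 8.95 CPM in the flox controls, and was called lower (-1.40 ± 0.41, adjusted p = 0.0254, lost without Cre control replicate 2 or 3 or either flox control, 0.0826 to 0.232). Of the 6 hepatocyte and 7 foregut markers, 1 and 2 had a row in the table. The part of these cell types in the gene lists above was not tested.

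The floxed chromosome is in the knockout and not in the Cre controls, so the genes within 5 Mb of Hand1 on chromosome 11 were listed separately. Of 131 tested genes, Hand1 left out, DESeq2 called 8 (6.11%), 3 higher and 5 lower, against 4.05% of all genes, and edgeR called none. At an unadjusted p below 0.05 there were 20 of the 131 in edgeR and 28 in DESeq2. Over all genes there were 2110 of 13695 in edgeR and 3166 of 13694 in DESeq2. The 131 genes had median log2 differences of 0.02 in replicate 1 and -0.13 in replicate 2. With the length and GC factors DESeq2 called 5 of the 131, 3 of which were among the 8, beside 5.17% of all genes. Gria1, a glutamate receptor subunit gene named after its values were seen, lies at chr11:57011618-57330244 and had 0.663 and 0.301 CPM in the knockout, against 3.15, 2.79 and 4.30 CPM in the Cre controls and 1.44 and 1.76 CPM in the flox controls. It was called lower with all 7 libraries and with each left out in turn (DESeq2 -2.72 ± 0.47, adjusted p = 2.85e-06). Hist3h2a, described above, lies within the same window.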

How the data were processed

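Per the submitters' processing notes, reads were handled with STAR 2.4.2a, featureCounts, Subread 1.5.0 and edgeR against mm10; their settings, gene models and strand use are not given in the sources used here. The authors deposited raw read counts per gene, with gene coordinates and summed exon length in bases, taken as given. For this comparison the deposited table gives log2 fold changes by the authors with their p-value and false discovery rate. Its 13701 genes have summed counts of 9 or more, so rarer genes are not analysed here. In the gene names, 46 added notes were stripped and 20 dates were turned back into symbols by coordinates. Of 13212 symbols found in the annotation 99.9% overlapped its span, and GC content was found for 99.4% of genes.

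Counts were tested with edgeR 4.0.16 (quasi-likelihood, TMM, filterByExpr, robust) in R 4.3.3, with all 7 libraries in 1 fit and a Benjamini-Hochberg adjusted p below 0.05. CPM are TMM-scaled and log2 CPM use a prior count of 2. Alternatives were DESeq2 1.42.0, limma 3.58.1 voom, other scalings and filters, leaving out each library, embryo sex, and smooth length and GC trends per library (mgcv 1.9.3) as offsets. Fits with 1 knockout library assume that it varies like the other groups. The test scripts were tested on simulated data. Near 1 CPM a gene has few counts and more counting error.

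Named genes were Hand1, Hand2 and Nkx2-5, the edgeR calls, and up to 12 DESeq2 calls each way outside the Cre range in both knockout libraries, averaging at least 5 CPM in the higher group and not predicted genes, by the smaller of the 2 libraries' absolute differences. From each list described, up to 4 called members were named. The results of 2 genes are not reported here. The members, lists and rule were chosen with earlier results of these data known. Lists are described by counts and medians, with no set test.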

Additional observations from a re-analysis of the deposited data

How the results depend on the processing

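No paired analysis was possible because no label marks a litter, animal or day shared by a knockout and a Cre control library: the final numbers 1 and 6 occur in the identifiers of both groups, but behind different prefixes. The edgeR count of 2 genes was 555 with DESeq2, 266 with DESeq2 on the 5 libraries alone, 423 with the likelihood ratio test, 21 with length and GC offsets, 708 with DESeq2 and those factors, 1 (Trim12a) with voom quality weights and 0 with embryo sex as a covariate, where 736 genes had an unadjusted p below 0.05. It stayed at 2 or 3 with RLE or no scaling, other filters, no robust estimation, plain voom, the 5 libraries alone, and without sex-linked or erythroid genes. With no scaling factors the median over all genes shifted by -0.10 (log2). Leaving out 1 library gave 0 to 8813 calls in edgeR, 104 to 8395 in DESeq2 and 180 to 6650 in DESeq2 with length and GC factors, the highest each time without knockout replicate 1. The fits without 1 Cre control that gave 0 edgeR calls had 880, 871 and 769 genes at an unadjusted p below 0.05 and 135, 143 and 104 DESeq2 calls. Hand1 kept its direction throughout but missed the threshold with voom quality weights (-6.10, adjusted p = 0.516) and with embryo sex (-6.03, adjusted p = 0.123), and ran between -6.17 and -5.89 with 1 library left out. List members called were 2 in edgeR, 54 in DESeq2, 65 with its length and GC factors and 5 with edgeR's offsets; genes near Hand1 called were 0, 8 and 5 by the first 3. Hand2 reversed to 0.21 and 0.24 with length and GC taken in. Nkx2-5 reversed to -0.027 with offsets and -0.10 with sex. Cox5a reversed to -0.27 and -0.23. With 1 library left out, Hand2 ran between -0.28 and 0.077, Nkx2-5 between -0.18 and 0.34, Tbx3 between -0.15 and 0.89 and Rpl22l1 between -0.093 and 3.45. The cause of each change was not tested. Fits without a flox control, the leave-outs of the length and GC fit and the set of 82 were added after seeing the data.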

Other observations

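Some calls that stayed past the threshold without any 1 library fall outside the groups described above, and all genes of this section were chosen after their values were seen. Ago2, a small RNA binding protein of the RNA silencing complex, had 61.8 and 54.4 CPM in the knockout, against 163, 246 and 223 CPM in the Cre controls (DESeq2 -1.83 ± 0.25, adjusted p = 2.31e-10). Masp1, a protease of the complement lectin pathway, had 3.39 and 2.41 CPM, against 12.7, 12.8 and 12.9 CPM in the Cre controls, which were almost equal (DESeq2 -2.09 ± 0.25, adjusted p = 5.97e-14). The transcription factor genes Meox1 and Gata3 were lower as well. Meox1, of somites and mesenchyme, had 10.3 and 10.7 CPM, against 31.9, 26.9 and 42.1 CPM (DESeq2 -1.66 ± 0.27, adjusted p = 2.68e-07), and Gata3 had 3.94 and 2.83 CPM, against 11.1, 8.49 and 14.1 CPM (DESeq2 -1.69 ± 0.34, adjusted p = 0.000113). Cxcl12, a chemokine of coronary vessel growth, had 42.2 and 65.9 CPM, against 202, 143 and 311 CPM (DESeq2 -1.99 ± 0.40, adjusted p = 0.000131), and was not called with the length and GC factors (0.0966).

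Among higher genes, Apold1, known from endothelial cells, had 31.8 and 41.5 CPM in the knockout, against 10.4, 11.6 and 10.7 CPM in the Cre controls and 18.2 and 20.2 CPM in the flox controls (DESeq2 1.77 ± 0.21, adjusted p = 4.58e-14). Slc35d3, a member of the nucleotide sugar transporter family, had 16.3 and 15.4 CPM, against 4.80, 4.51 and 4.34 CPM in the Cre controls and 4.13 and 3.63 CPM in the flox controls, so both knockout libraries stood above all 5 controls (DESeq2 1.83 ± 0.20, adjusted p = 7.5e-17). Ntf3, the neurotrophin NT-3, had 4.68 and 7.47 CPM, against 1.23, 1.5 and 1.58 CPM in the Cre controls and 3.51 and 3.855 CPM in the flox controls (DESeq2 2.09 ± 0.34, adjusted p = 3.14e-07).

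Of 4 tested genes with counts in only 1 of the 2 groups, DESeq2 called 3. Ifi202b, an interferon-activated gene, had 22 counts over both knockout libraries and 0 over the Cre controls. Trim12a, a member of a cluster of closely related Trim genes that can share reads, was counted 81 and 109 times in the knockout libraries, 0 times in each of the 3 Cre controls and 177 and 130 times in the flox controls. Its knockout level was at least 41.9-fold higher than a floor of 3 counts per Cre control library. 4930481A15Rik was counted 0 times in both knockout libraries, 53, 100 and 93 times in the Cre controls, and 41 and 0 times in flox control replicates 1 and 2, so it was absent from 1 library of a genotype that kept Hand1.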
